A study of Bos taurus with 44 samples.

Results

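FABP3, FASN, FBP1, ALAS1, CA2 and SULT1A1 are 6 cattle genes of lipid, sugar, haem, acid-base and sulfate metabolism, measured by 7 probes of the 13824 on the array. They were chosen because their estimates in the intercaruncular uterine lining were higher after somatic cell nuclear transfer than after artificial insemination. FASN has 2 probes, which are given separately, and the other genes have 1 each. The annotated probes cover 8073 different gene symbols.

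Each of the 44 arrays compared RNA of cattle uterine lining in 2 colours, Cy5 and Cy3. The tissue was taken either from caruncles, the sites where the ruminant placenta attaches, or from the intercaruncular lining between them. The groups were somatic cell nuclear transfer (SCNT), that is, animals carrying cloned embryos, transfer of embryos fertilised in vitro (IVF-ET), artificial insemination (AI), and CJ animals, which the labels describe only by the word cycle. The AI animals set against SCNT and CJ bear another name in the labels than those set against IVF-ET, and no animal is in both sets. The labels used here give no breed, age or day of pregnancy.

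The intercaruncular SCNT arrays were 10 arrays of 5 SCNT animals and 10 arrays of 4 AI animals, all hybridised against 5 CJ animals, so SCNT and AI met there only through CJ. In the caruncular area SCNT and AI met directly, where 2 pairs of pools were each hybridised in both dye orders (4 arrays), and the size of a pool is not in the labels. IVF-ET and AI met in both areas, each on a closed loop of 10 arrays with 5 IVF-ET and 5 AI animals. All 5 IVF-ET animals and 3 AI animals were in both loops. Standard errors (SE) come from a fit over arrays, which allows 1 small correlation over all probes for arrays that share an animal. For genes that vary widely between animals they are smaller than the spread of the animals gives, so the IVF-ET results are also given with the animal as the unit.

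The products of these genes act in several pathways. Fatty acid binding proteins carry long-chain fatty acids through the cytosol, and fatty acid synthase makes palmitate from acetyl and malonyl units. Fructose-bisphosphatase reverses a committed step of glycolysis, the ALAS enzyme starts haem synthesis in mitochondria, carbonic anhydrase interconverts carbon dioxide and bicarbonate, and sulfotransferases attach sulfate to phenols and steroids. In the ruminant uterus, glands and surface epithelium feed the embryo through secretions before the placenta is established.

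All values below are log2 ratios or differences of log2 ratios, on which 1 unit is a doubling. They carry no absolute level, so the genes are compared between animals and not with each other. The sign depends on which dye is the numerator, and no label settles this. Cy5 was taken as the likely one. Read in that way, ISG15, an interferon-stimulated gene known to be high in the lining of early pregnant ruminants, stood at 4.00 to 5.21 in the 5 SCNT animals against the mean of CJ, and OXTR, the oxytocin receptor, known to be low then, stood at -4.05 to -2.80. Under the other reading every sign below turns. In bulk tissue, fewer cells of a type and less RNA per cell cannot be told apart.

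The arrays were similar in centre, with medians between -0.02 and 0.01, and their standard deviations over probes ran from 0.22 to 0.62. Each probe had 2 adjacent spots. Over the 44 arrays the spots correlated with r of 0.929 to 0.992 for 6 of the 7 probes, across arrays that share animals. FASN probe 2 was the exception, with r of 0.618 and a standard deviation of 0.41 for a single spot, so its values are the least certain. Within the IVF-ET loops, which have no common control, single arrays could oppose each other, with correlations over all probes down to -0.52 in the intercaruncular loop and -0.29 in the caruncular loop. The arrays with CJ did not correlate below -0.22.

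In the intercaruncular area the contrast of SCNT with AI, and both groups with CJ, gave the values that chose these genes, so they are described without a test. Levels of an animal are given against the mean of the 5 CJ animals. FABP3, the heart-type fatty acid binding protein, had levels of 4.83, 5.39, 2.96, 4.24 and 3.95 in SCNT animals 1 to 5. In AI animals 1 to 4 it had 2.17, 3.16, -0.36 and 1.33, and the CJ animals lay between -0.38 and 0.85. All 5 SCNT animals thus lay above every CJ animal and 4 of them above every AI animal, while SCNT animal 3 lay between the AI animals. The difference of SCNT minus AI in the fit over arrays was 2.98 ± 0.54 (SE, 5 SCNT and 4 AI animals), or 7.89-fold. That of SCNT minus CJ was 4.28 ± 0.41. AI animal 3 was on more arrays than the other AI animals. With each animal counted once, SCNT minus AI was 2.70 ± 0.585.

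FASN, the fatty acid synthase, gave 2 different pictures. Its probe 1 had levels of 0.81, 1.34, 0.37, 0.35 and 0.82 in the SCNT animals, against -0.01, -0.16, -0.20 and -0.29 in the AI animals and -0.17 to 0.14 in the CJ animals. The SCNT animals lay above all others on this probe, with a difference of 0.90 ± 0.16 from AI and 0.74 ± 0.12 from CJ. On probe 2 the SCNT animals had 0.62, 0.59, 0.01, -0.31 and 0.29, and the AI animals 0.73, -1.01, -0.21 and 1.11. The groups overlapped fully on that probe, whose difference of SCNT minus AI was 0.13 ± 0.29.

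FBP1, fructose-bisphosphatase 1, had levels of 2.70, 1.59, 0.62, 0.69 and 0.81 in SCNT animals 1 to 5. The AI animals had 0.03, 0.03, -0.08 and 0.02, and the CJ animals lay between -0.21 and 0.22. SCNT animals 1 and 2 were well above the other 3, and all 5 lay above every AI and CJ animal. The difference of SCNT minus AI was 1.28 ± 0.26, or 2.44-fold, and it was 0.96 without SCNT animal 1.

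ALAS1 encodes the form of 5-aminolevulinate synthase found in all tissues, as opposed to the red cell form. The SCNT animals had 1.21, 0.92, 0.64, 0.74 and 0.83, against 0.09, -0.07, 0.07 and -0.06 in the AI animals and -0.20 to 0.11 in the CJ animals. No SCNT animal reached down to any other animal, and the AI and CJ animals overlapped. The difference was 0.86 ± 0.11 for SCNT minus AI (1.81-fold) and 0.01 ± 0.09 for AI minus CJ.

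CA2, the cytosolic carbonic anhydrase 2, had levels of 2.12, 1.82, 1.31, 2.02 and 2.57 in the SCNT animals and 1.02, 0.38, 0.14 and -0.10 in the AI animals. The CJ animals spread widely, with 0.84, 0.20, -0.01, -0.41 and -0.61, and still lay below every SCNT animal. The difference of SCNT minus AI was 1.65 ± 0.30, or 3.14-fold. SULT1A1, a phenol sulfotransferase, had 1.55, 1.67, 0.81, 0.38 and 1.28 in the SCNT animals, against 0.41, 0.50, -0.28 and 0.20 in the AI animals and -0.25 to 0.45 in the CJ animals. SCNT animal 4 fell among the AI and CJ animals, and the other 4 lay above them. The difference of SCNT minus AI was 0.99 ± 0.20.

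**Figure D1:**
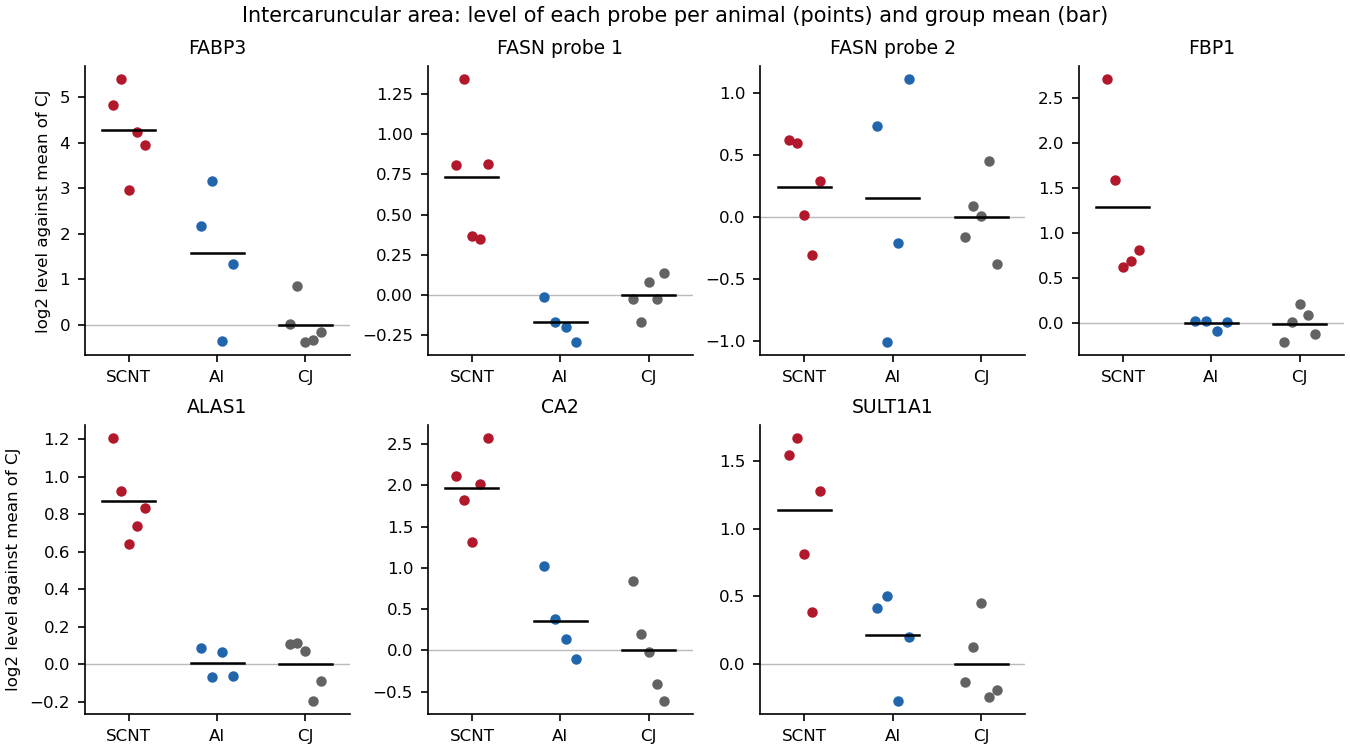
Level of each of the 7 probes in the intercaruncular area, as a log2 value against the mean of the CJ animals (y axis, scale set per panel), for SCNT (n = 5), AI (n = 4) and CJ (n = 5). Points are animals and bars are group means; the SCNT animals lie above every AI and CJ animal for FASN probe 1, FBP1, ALAS1 and CA2.

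In all, 4 of the 7 probes had every SCNT animal above every AI animal, as did 0.781% of all probes. Over all probes, 0.253% were higher and 0.0289% lower past an adjusted p of 0.05 in that contrast (limma), which is given as background to the choice and read no further. With the animal as the unit that contrast called 9 probes from fitted levels and none from plain means, against 39 in the fit over arrays. Against CJ, 5 probes had every SCNT animal above every CJ animal, as did 4.57% of all probes, and 10.4% of all probes were called higher and 11.3% lower. For AI against CJ no member probe had groups apart, where 2.8% of all probes had every AI animal above and 4.26% every AI animal below the CJ animals, and 6.92% were called higher and 8.08% lower. The AI minus CJ difference was 1.30 ± 0.43 for FABP3, of which 3 of 4 AI animals lay above every CJ animal. For the other 6 probes the AI minus CJ difference lay between -0.17 and 0.32.

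One animal of the AI group, number 3, which was on 4 of the 10 AI arrays, differed from the rest of its group. It had an ISG15 level of -0.13, where the other 3 had 4.31, 5.53 and 3.80, and an OXTR level of -1.20, where they had -3.64, -4.38 and -2.59. Its FABP3 level of -0.36 was the lowest of the AI group and lay among the CJ animals. Without AI animal 3, the SCNT minus AI difference was 2.26 for FABP3, 0.85 for FASN probe 1, -0.05 for FASN probe 2, 1.19 for FBP1, 0.91 for ALAS1, 1.71 for CA2 and 0.69 for SULT1A1. The AI minus CJ difference of FABP3 was then 2.01, against 1.30 with it and 0.85 without AI animal 2 instead. ALAS1, CA2, FBP1 and FASN probe 1 thus moved little with this animal, while FABP3 and SULT1A1 came closer to AI.

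Cell markers moved with the groups in this area. Over all probes 10.4% were called higher and 11.3% lower in SCNT versus CJ, and 0.282% were called in SCNT versus AI. The median over 8 measured stromal fibroblast genes was -1.75 to -1.13 in the SCNT animals, -1.63 to 0.30 in the AI animals and -0.60 to 0.50 in the CJ animals, with 7 of the 8 lower in SCNT than CJ past the threshold and none called between SCNT and AI, where the median difference was -0.91. The 0.30 was that of AI animal 3. AI animals 1, 2 and 4 had -1.48, -1.63 and -1.30, within the range of the SCNT animals. Of 11 epithelial genes, 6 were higher and 1 lower in SCNT than CJ, and none was called between SCNT and AI, where their median difference was 0.15. Of 8 smooth muscle genes 5 were lower in SCNT than CJ, with a median difference of -0.42 between SCNT and AI and none called. On that list AI animal 3 had -0.30, and AI animals 1, 2 and 4 had -1.07, -1.24 and -0.99. Of 11 trophoblast genes 4 were higher in SCNT than CJ. The macrophage list had medians of 0.27 to 0.50 in the SCNT animals and 0.19 to 0.50 in the AI animals, all above the -0.31 to 0.12 of the CJ animals, with 3 of 7 genes higher in SCNT and 4 in AI. Of 7 endothelial genes 3 were higher and 1 lower in SCNT than CJ. The median of the trophoblast list was 0.05 to 1.03 in the SCNT animals, highest in SCNT animal 4, and 0.00 to 0.13 in the AI animals. No gene of the red blood cell list (5 measured) or the striated muscle list (7) was called between SCNT and CJ, and 1 of 6 adipocyte genes was higher. In AI versus CJ 4 of the stromal and 3 of the smooth muscle genes were lower, where 8.08% of all probes were. There 2 of the epithelial genes were higher, where 6.92% of all probes were, and no trophoblast gene was called. Of the endothelial genes 1 was higher and 1 lower in AI than CJ. The part of these cell types in the differences of the 6 genes was not tested.

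The caruncular pools of SCNT and AI offered a comparison on arrays that the choice of genes had not used. The pools bear the same group names as the intercaruncular SCNT and AI animals, and the labels do not say which animals were pooled. The same animals may thus be in both, so the pools are not known to be independent of that choice. In the pair NT POOL1 over IAJ POOL2 the log2 ratio of SCNT over AI was 0.56 for FABP3, and in the pair NT POOL2 over IAJ POOL1 it was 1.36. FBP1 had 0.96 and 1.31 in the same order of pairs. ALAS1 had 0.60 and 0.39, and CA2 had 0.73 and 0.64. For these 4 genes both pairs, and all 4 single arrays in either dye order, lay above 0.

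SULT1A1 had 0.29 and 0.56 and FASN probe 1 had 0.21 and 0.46, again above 0 on all 4 arrays. FASN probe 2 had -0.21 and -0.14, with 1 of its 4 arrays above 0. So 6 of the 7 probes were higher in SCNT in both pairs, where 30.4% of all probes were, and the exception was the probe with the least agreement between its spots.

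The mean over the 2 pairs was 1.13 ± 0.11 for FBP1 (limma, adjusted p = 0.0907) and 0.68 ± 0.09 for CA2 (adjusted p = 0.114). It was 0.96 ± 0.19 for FABP3 (adjusted p = 0.184) and 0.49 ± 0.09 for ALAS1 (adjusted p = 0.168). It was 0.42 ± 0.10 for SULT1A1 (adjusted p = 0.23) and 0.33 ± 0.10 for FASN probe 1 (adjusted p = 0.291). FASN probe 2 had -0.18 ± 0.08 (adjusted p = 0.467). None of the 7 passed the threshold after adjustment over 13824 probes, and neither did any other probe (0.0% called).

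Before adjustment, 6 of the 7 probes had p under 0.05 in limma's test, all of them higher in SCNT, where 6.31% of all probes were higher at that level. A call depended on the spots used. With the first spot of each probe alone 94 probes passed, FABP3 (1.01), FBP1 (1.11) and CA2 (0.73) among them, and with the second spot alone 2 probes passed. The epithelial list had a median of -0.34 and the trophoblast list one of 0.56 in these pools, with no gene of either list called, and their part in the values of the 6 genes was not tested.

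Side by side, SCNT minus AI was 0.96 in the pools and 2.98 in the intercaruncular animals for FABP3, 0.68 and 1.65 for CA2, and 1.13 and 1.28 for FBP1. It was 0.49 and 0.86 for ALAS1, 0.42 and 0.99 for SULT1A1, and 0.33 and 0.90 for FASN probe 1. The difference between the areas was not tested for SCNT, because the pools and the animals were measured on separate designs.

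**Figure D2:**
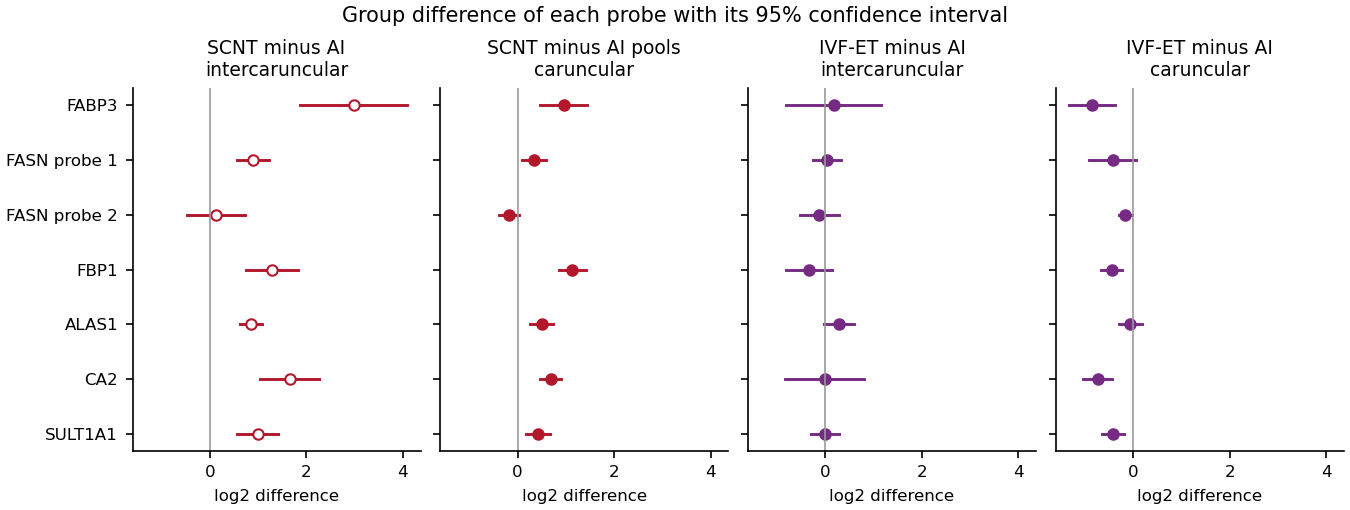
Log2 difference between groups for each of the 7 probes (x axis) in 4 comparisons, with 95% confidence intervals of the fits over arrays or pool pairs as lines. Open points mark the comparison that chose the genes; FBP1 lies at 1.28 there and at 1.13 in the caruncular pools, while in the caruncular IVF-ET loop FABP3 and CA2 lie at -0.85 and -0.74.

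In the caruncular IVF-ET loop the same genes were measured in other animals, and most values lay below 0. Levels of an animal are given here against the mean of the 5 AI animals. FABP3 had -1.24, -0.09, -1.91, -0.54 and -0.49 in IVF-ET animals 1 to 5, against -0.84, 0.66, -0.47, 0.67 and -0.03 in AI animals 1 to 5. IVF-ET animals 1 and 3 lay below every AI animal and the other 3 lay within the AI range. The difference of IVF-ET minus AI was -0.85 ± 0.22 (SE, n = 5 each; limma, adjusted p = 0.361), with 8 of 10 arrays below 0. With the animal as the unit the SE was 0.37 (exact permutation p = 0.0873, two-sided).

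CA2 had -1.26, -0.41, -0.85, -0.70 and -0.47 in the IVF-ET animals, against -0.41, 0.68, -0.44, 0.56 and -0.39 in the AI animals. All 5 IVF-ET animals were below the AI mean, and 4 of them lay below every AI animal. The difference was -0.74 ± 0.14 (limma, adjusted p = 0.238), with 9 of 10 arrays below 0. With the animal as the unit the SE was 0.25 (exact permutation p = 0.0159).

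FBP1 had -0.62, -0.36, -0.58, -0.44 and -0.21 in the IVF-ET animals, against -0.17, 0.44, -0.29, 0.48 and -0.47 in the AI animals. All 10 arrays were below 0 for this gene, although the animals' ranges overlapped, and the difference was -0.44 ± 0.10 (limma, adjusted p = 0.28). Over animals the SE was 0.18. SULT1A1 had -0.66, -0.49, -0.13, -0.32 and -0.52 in the IVF-ET animals and -0.36, 0.17, -0.13, 0.12 and 0.19 in the AI animals. Its difference was -0.42 ± 0.11 (limma, adjusted p = 0.361), with 8 of 10 arrays below 0 and an SE of 0.13 over animals.

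FASN probe 1 spread over a wider range within each group than between them, from -1.01 to 0.18 in IVF-ET animals and from -0.59 to 0.81 in AI animals. Its difference was -0.42 ± 0.22 (limma, adjusted p = 0.598), and -0.18 without AI animal 4. FASN probe 2 differed by -0.16 ± 0.06 (adjusted p = 0.478). ALAS1 was the flattest of the 7, at -0.06 ± 0.11, with a 95% interval of -0.30 to 0.17. Over animals the SE was 0.28 for FASN probe 1, 0.095 for FASN probe 2 and 0.13 for ALAS1.

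No member passed the adjusted threshold in the caruncular loop, where 3 probes of 13824 did (0.0217%). Before adjustment 5 of the 7 probes (FABP3, FASN probe 2, FBP1, CA2 and SULT1A1) had p under 0.05, all lower in IVF-ET, where 4.01% of all probes were lower at that level. These counts rest on the fit over arrays. In the exact permutation test over the animals, the smallest possible p is 0.00794. CA2 (p = 0.0159) and SULT1A1 (p = 0.0317) were under 0.05 there, and FABP3 (0.0873), FBP1 (0.0635) and FASN probe 2 (0.127) were not. The share of all probes under 0.05 in that test was not counted. Neighbouring animals of the loop share an array, so the animals are not fully independent and these p-values can be too small. Limma on the animals' levels gave an adjusted p of 1.0 for each of the 7 and called no probe. Leaving out each animal in turn kept the sign for these 5, with FABP3 between -1.01 and -0.69 and CA2 between -0.83 and -0.61. The epithelial, stromal and trophoblast lists had median differences of 0.12, -0.03 and 0.32, with no gene called. Caruncular values of SCNT minus AI were above 0 and those of IVF-ET minus AI below 0 for FABP3, CA2, FBP1 and SULT1A1, but the AI animals differed and the difference between the effects was not tested.

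**Figure D3:**
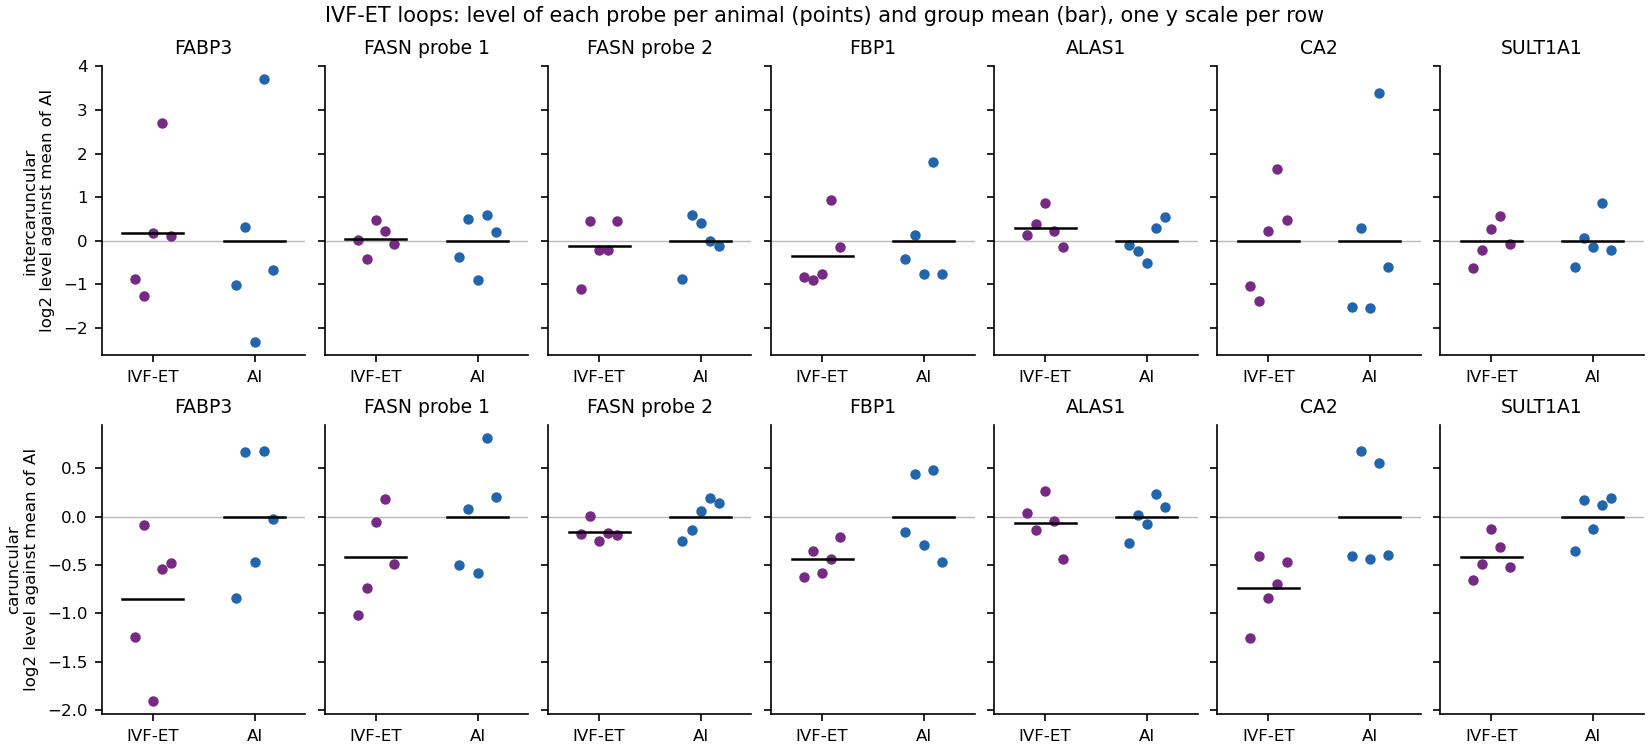
Level of each of the 7 probes per animal as a log2 value against the mean of the AI animals (y axis, 1 scale per row) in the intercaruncular (upper row) and caruncular (lower row) IVF-ET loops, with n = 5 IVF-ET and n = 5 AI animals in each. Points are animals and bars are group means; for FABP3 and CA2 single animals reach 3.70 and 3.38 in the intercaruncular area, where the spread within groups exceeds the difference between them.

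In the intercaruncular IVF-ET loop the groups did not separate, but single animals lay far apart. FABP3 had -0.87, -1.28, 0.18, 2.70 and 0.11 in IVF-ET animals 1 to 5, against -1.01, 0.32, -2.33, 3.70 and -0.68 in AI animals 1 to 5 of this loop, which are numbered anew. One animal in each group, number 4 in both, was far above its group, and the lowest animal was AI animal 3. The difference of IVF-ET minus AI was 0.17 ± 0.46 (limma, adjusted p = 0.943), with a 95% interval of -0.82 to 1.16. With the animal as the unit the SE was 1.02 and the interval -2.05 to 2.38.

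CA2 followed the same animals, with -1.03, -1.39, 0.22, 1.63 and 0.47 in the IVF-ET animals and -1.52, 0.28, -1.54, 3.38 and -0.60 in the AI animals. Its difference was -0.02 ± 0.38 (limma, adjusted p = 0.992), with an SE of 0.88 over animals. FBP1 had its highest levels in the same 2 animals, 0.94 in IVF-ET animal 4 and 1.81 in AI animal 4, and differed by -0.34 ± 0.22 (adjusted p = 0.66). SULT1A1 likewise peaked at 0.56 in IVF-ET animal 4 and 0.88 in AI animal 4, with a difference of -0.02 ± 0.13 (adjusted p = 0.985). Over animals the SE was 0.50 for FBP1 and 0.28 for SULT1A1.

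ALAS1 did not peak in the 2 animals numbered 4. It was highest in IVF-ET animal 3, at 0.86, and its difference of 0.29 ± 0.15 (limma, adjusted p = 0.579) was the largest of the 7 above 0. FASN probe 1 had its highest level, 0.60, in AI animal 4, while its highest IVF-ET level, 0.47, was in animal 3, and it differed by 0.04 ± 0.14 (limma, adjusted p = 0.956). FASN probe 2 differed by -0.13 ± 0.19 (adjusted p = 0.88). Over animals the SE was 0.23 for ALAS1, 0.285 for FASN probe 1 and 0.33 for FASN probe 2. No member had p under 0.05 even before adjustment, where 9.3% of all probes did, and 1 of 13816 probes passed after it (0.00724%).

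The ISG15 and OXTR levels of the same animals are given beside these values. ISG15 stood at 3.73 in IVF-ET animal 4 and 4.24 in AI animal 4, and at -2.73 to 0.53 in the other 8 animals, with -2.73 in AI animal 3. OXTR stood at -1.49 and -1.71 in the 2 animals numbered 4, and from -0.74 to 0.97 in the others. The stromal list was lowest in the same 2 animals, at -1.80 and -2.27, as was the smooth muscle list, at -0.22 and -0.81. The epithelial list was highest in them, at 0.70 and 0.88, where the next animal had 0.35. FABP3 and CA2 were thus highest where ISG15 was highest and the stromal list lowest. The part of these cell types in the levels was not tested.

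**Figure D4:**
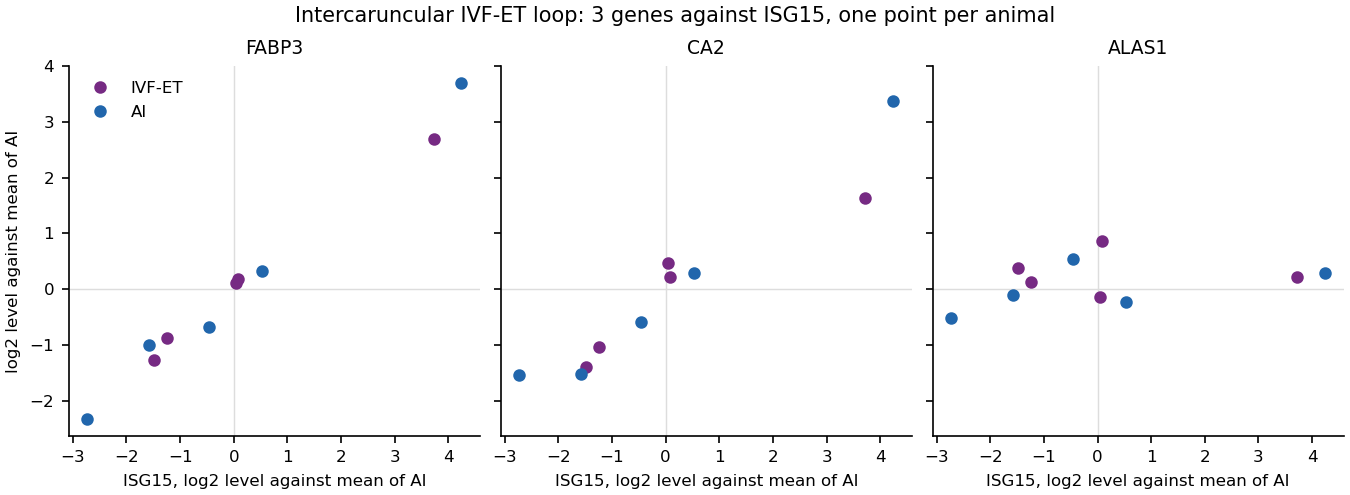
FABP3, CA2 and ALAS1 (y axis) against ISG15 (x axis) in the intercaruncular IVF-ET loop, both as log2 levels against the mean of the AI animals, with 1 point per animal (n = 5 IVF-ET and n = 5 AI). FABP3 and CA2 climb with ISG15 from AI animal 3 at -2.73 to AI animal 4 at 4.24 on the x axis, and ALAS1 shows no such order.

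The difference between the areas in the IVF-ET effect (caruncular minus intercaruncular) was tested over both loops. It was -1.02 ± 0.56 for FABP3 (limma, adjusted p = 0.67), -0.72 ± 0.45 for CA2 (adjusted p = 0.713) and -0.41 ± 0.18 for SULT1A1 (adjusted p = 0.618). Leaving out 1 animal moved FABP3 between -1.57 without AI animal 4 and -0.59 without AI animal 3, and CA2 between -1.17 and -0.42 without the same animals, in a numbering over both loops. With the level of an animal in 1 area as the unit, the SE was 1.17 for FABP3, 0.99 for CA2 and 0.33 for SULT1A1. The 2 areas of an animal were taken as separate there, so the pairing of areas within animals was not used. SULT1A1 alone had p under 0.05 before adjustment, 1 probe of 7 where 7.74% of all probes did. No member passed the adjusted threshold, and 1 of 13824 probes did (0.00723%). For ALAS1 the difference was -0.35 ± 0.19, with an SE of 0.28 over the animals' levels.

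Across all 44 arrays, each turned to the first-named group over the other, the profile of every probe was set against that of all other named genes. The arrays share animals and include those that chose the genes, so the correlations are descriptions. FABP3 was most like PLET1 (r = 0.903), ATP5IF1 (0.894) and ISG15 (0.888). CA2 was most like FABP3 (0.846), LY6G6C (0.844) and LGMN (0.819), and SULT1A1 most like LY6G6C (0.893), RAB3B (0.844) and MS4A8 (0.835).

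FBP1 was most like RAB3B (0.833), CYC1 (0.813) and LY6G6C (0.788). ALAS1 was most like CTSZ (0.76), SULT1A1 (0.755) and GJB2 (0.743), and FASN probe 1 most like ATP5F1B (0.789), SULT1A1 (0.741) and BCAM (0.73). Within the 6 genes, FABP3 appeared among the closest profiles of CA2, and SULT1A1 among those of ALAS1 and of FASN probe 1. FASN probe 2 shared none of these neighbours, being most like TRMT10A (0.929), CXCR3 (0.838) and ZCCHC8 (0.828).

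The other genes of the same pathways were counted from lists that leave the 6 genes out, with 131 measured. Between SCNT and AI none of the 131 passed the threshold, either in the intercaruncular fit or in the pools, and none did between IVF-ET and AI in either area. Over all probes 0.282% were called in that intercaruncular fit and 0.0% in the pools. In the IVF-ET loops 0.0217% (caruncular) and 0.00724% (intercaruncular) were called. At such shares the lack of a call among 131 genes says little about the pathways. Against CJ, 24 were higher and 14 lower in SCNT, and 8 higher and 6 lower in AI. These 2 comparisons share their CJ animals.

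Of 20 fatty acid synthesis genes other than FASN, 2 were higher and 5 lower in SCNT than CJ, with a median difference of -0.003. FADS1, a fatty acid desaturase, was lower, at -0.93 ± 0.12 in SCNT (limma, adjusted p = 8.38e-06) and -0.72 ± 0.12 in AI (adjusted p = 0.000316). ELOVL5, a fatty acid elongase, was lower, at -0.72 ± 0.09 in SCNT (adjusted p = 3.47e-06) and -0.49 ± 0.09 in AI (adjusted p = 0.000538). ACLY, which supplies acetyl units for the synthesis, was lower, at -0.51 ± 0.10 in SCNT (adjusted p = 0.00056) and in AI (adjusted p = 0.00132). MCAT, the mitochondrial malonyl transferase, was lower, at -0.48 ± 0.09 in SCNT and -0.46 ± 0.09 in AI (adjusted p = 0.0011). FASN probe 1, at 0.74 in SCNT, thus stood on the other side of 0 from these 4 genes, which were lower in AI as well.

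Of 21 genes of fatty acid uptake, binding and storage, 5 were higher and 1 lower in SCNT than CJ, with a median of 0.08. SLC27A6, a fatty acid transport protein, was higher by 1.71 ± 0.39 (limma, adjusted p = 0.00275). In AI it was higher than CJ by 0.72 ± 0.40, which was not called. Its SCNT minus AI value was 0.99 ± 0.51 in the intercaruncular fit and -1.13 ± 0.10 in the caruncular pools, neither called. PLIN2, which coats lipid droplets, was higher by 0.53 ± 0.11 on 1 probe (adjusted p = 0.00105) and by 0.12 ± 0.16 on another, which was not called. PNPLA2, a triglyceride lipase, was higher by 0.42 ± 0.14 (adjusted p = 0.0843 in limma on the animals' levels), and SLC27A4, another transport protein, was lower, at -0.47 ± 0.12. In the pools SCNT minus AI was -0.37 ± 0.12 for PNPLA2 and 0.15 ± 0.10 for SLC27A4. For PLIN2 it was 0.10 ± 0.09 on the first-named probe, and none of these was called. Of 22 fatty acid oxidation genes 6 were higher and 2 lower in SCNT, with a median of 0.14. CPT1A, which admits fatty acids to mitochondria, was higher by 0.78 ± 0.11 in SCNT (limma, adjusted p = 1.8e-05) and ACADVL, the very long chain acyl-CoA dehydrogenase, by 0.72 ± 0.12 (adjusted p = 0.000137). In AI they were higher by 0.35 ± 0.11 and 0.39 ± 0.12. Those AI calls did not hold in limma on the animals' levels (adjusted p = 0.232 and 0.2). ACADS, the short chain dehydrogenase, was higher by 0.42 ± 0.10 (adjusted p = 0.0594 in limma on the animals' levels), and ETFA, which passes electrons from these dehydrogenases to the respiratory chain, was lower, at -0.30 ± 0.07 (limma, adjusted p = 0.00322).

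Around FBP1, 3 of 17 genes of gluconeogenesis, fructose and glycogen were higher and 2 lower in SCNT than CJ, with a median of 0.003. PFKFB3, which makes the allosteric inhibitor of fructose-bisphosphatase, was higher by 1.14 ± 0.21 (limma, adjusted p = 0.000359). In AI it was higher than CJ by 0.59 ± 0.21, which was not called (adjusted p = 0.0715). AKR1B1, an aldose reductase, was higher by 0.74 ± 0.17 and PYGB, a glycogen phosphorylase, by 0.38 ± 0.08, while G6PC3, a glucose-6-phosphatase, was lower, at -0.60 ± 0.11. In the caruncular pools SCNT minus AI was -0.73 ± 0.10 for PFKFB3 and 0.23 ± 0.10 for AKR1B1. It was -0.08 ± 0.08 for PYGB and -0.07 ± 0.08 for G6PC3, and none of these was called. In AI, PYGB was the 1 gene of the list called, higher by 0.41 ± 0.08, a call that did not hold with the animal as the unit (limma, adjusted p = 0.0614).

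Around ALAS1, 7 of 22 haem genes were higher and 3 lower in SCNT than CJ, with a median of 0.09. ALAD, the enzyme after ALAS in haem synthesis, was higher by 1.18 ± 0.22 (limma, adjusted p = 0.000469). In AI it was higher than CJ by 0.67 ± 0.23, just short of a call (adjusted p = 0.0505). PGRMC1, a membrane haem-binding protein, was higher by 0.94 ± 0.12 and FTH1, the ferritin heavy chain, by 0.83 ± 0.09, while HEBP2 was lower, at -0.47 ± 0.10. In AI, FTH1 was also higher, by 0.47 ± 0.09 (limma, adjusted p = 0.00136). HEBP2 was lower there, at -0.41 ± 0.10, a call that did not hold in limma on the animals' levels (adjusted p = 0.068). Of 19 carbonic anhydrase and acid-base transport genes CA8, a carbonic anhydrase-related protein without the enzyme activity, was the 1 called, lower, at -0.39 ± 0.10 on 1 probe and -0.11 ± 0.12 on another, which was not called. Of 10 sulfation genes BPNT1, a phosphatase of the sulfate donor's by-product, was the 1 called, higher by 0.94 ± 0.11 in SCNT (adjusted p = 4.79e-06) and by 0.63 ± 0.12 in AI (adjusted p = 0.000767).

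The lists' counts are read against 10.4% of all probes called higher and 11.3% lower in SCNT versus CJ. In AI versus CJ 6.92% of all probes were called higher and 8.08% lower. With the animal as the unit 3 genes of uptake, 4 of oxidation and 5 of the haem list were called in SCNT versus CJ, against 6, 8 and 10. Of all probes 11.8% were called in that way, against 21.7% in the fit over arrays. The marker lists that moved in that comparison are given above, and their part in these pathway values was not tested.

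**Figure D5:**
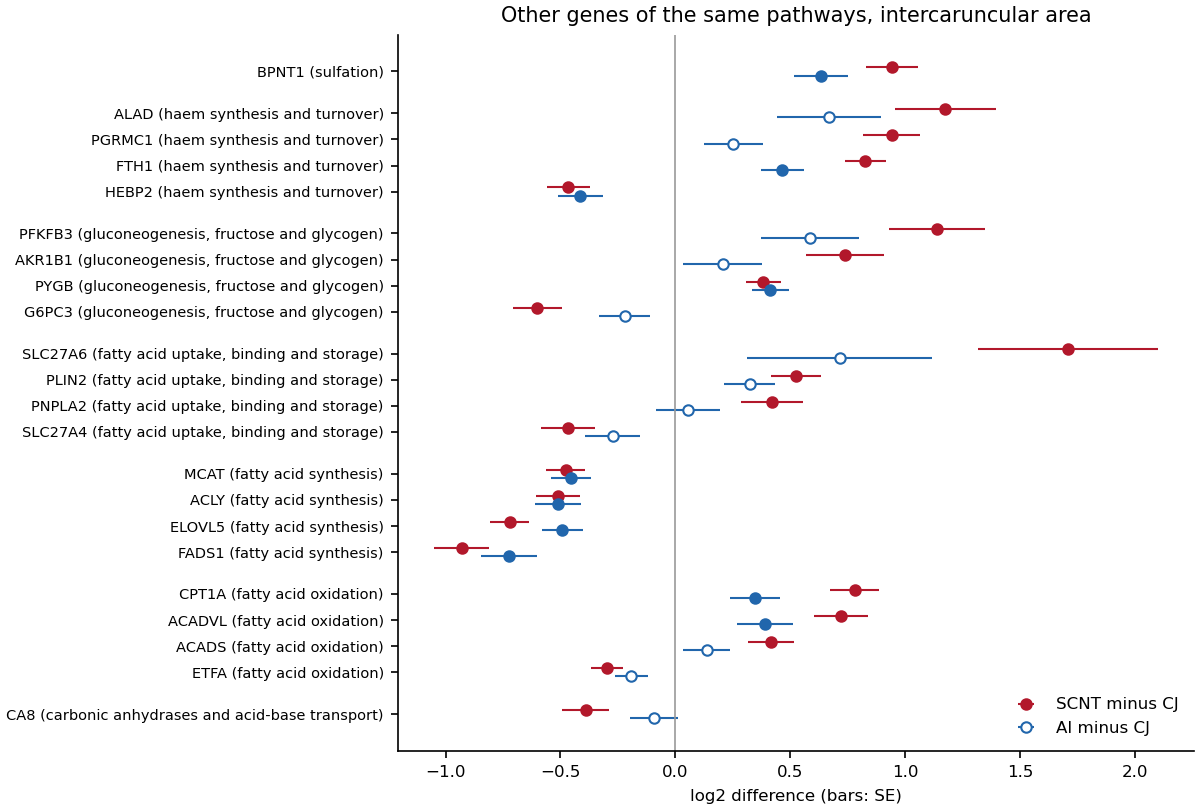
Log2 difference (x axis) from CJ in SCNT and in AI animals for the pathway genes named above, with SE bars, grouped by list; filled points passed an adjusted p of 0.05 and open points did not. FADS1 and ELOVL5 lie left of 0 in both groups, SLC27A6 lies farthest right at 1.71 in SCNT, and the open AI points include PFKFB3 and ALAD.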

How the data were processed

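Each spot has a log2 ratio of both dyes, as deposited by the authors. How they corrected background and normalized is not given in the sources used here. Of values below -4, 100.0% equalled log2 of a ratio with 4 decimals. The 2 spots of a probe were averaged; 8645 of 13824 probes carry 1 gene symbol, through the supplied annotation. Control spots are not marked and stayed in.

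Differences were estimated per probe in a model with dye as a covariate, where arrays with an animal in common were given 1 shared correlation, and variances were moderated with limma 3.58.1 (R 4.3.3). A probe was tested if at least 80% of the arrays had its value, and p-values were adjusted after Benjamini and Hochberg across the whole table, and called under 0.05. Errors are standard errors (SE); the number of animals and pools limits the precision. Levels per animal come from a fit with 1 coefficient per animal, and in the loops errors add up along the ring. Pools were averaged over dye swaps, and their 2 values were tested against 0. The fits were tested on simulated data: for a log2 difference of 1, 96% of 100 changed probes were recovered in the caruncular loop and 89% in the pools, and for 0.5 in the pools 5%. In the intercaruncular loop 92% were recovered for 1 and 49% for 0.5. Every simulated probe of the loops had the same small share of its variance between animals. The spread in the pools was drawn from the model of the test itself. These rates are thus not those of genes that vary widely between animals, such as FABP3.

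The genes and lists were chosen with earlier results of these data known. Named were the 6 genes, up to 4 other genes per list and comparison with the smallest p past the threshold, the 3 closest profiles per probe, and ISG15 and OXTR. Where a listed gene has several probes, the most complete one was used. Alternatives were each spot alone, no dye term, independent arrays, scaled arrays, complete probes, each animal or pair left out, means per animal, levels of the animals as replicates (added after seeing the data), and a block linking the areas of an animal, which the labels' animal names support. Promoter sequences and gene coordinates were not used here.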

Additional observations from a re-analysis of the deposited data

Results flagged for a closer look

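Over the 7 probes, 49 groups of 4 or 5 animals were searched for a level far from the rest of its group, which chance alone gives in about 1 group of 20. One level met that criterion. In the intercaruncular fit with CJ, FBP1 in AI animal 3 stood at -0.079, away from 0.03, 0.03 and 0.02 in the other 3 AI animals. The gap is small beside the 0.62 to 2.70 of the SCNT animals and the -0.21 to 0.22 of the CJ animals. AI animal 3 is also the one with ISG15 at -0.13 and OXTR at -1.20 within its group.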

How the results depend on the processing

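Of the members' values, 842 recomputed under another setting kept their direction and, where tested, their side of the threshold. With the first spot alone FABP3 (1.01), FBP1 (1.11) and CA2 (0.73) passed the threshold in the pools, where 94 probes then passed, against 0 with both spots and 2 with the second spot. Values near 0 changed sign in the IVF-ET loops: CA2 intercaruncular to 0.069 on scaled arrays, SULT1A1 intercaruncular to 0.048 and FASN probe 2 between areas to 0.006 with the first spot. Leaving out each animal in turn gave -0.17 to 0.053 for ALAS1 (caruncular). For the intercaruncular animals it gave -0.25 to 0.79 for FABP3, -0.31 to 0.56 for CA2, -0.12 to 0.18 and -0.33 to 0.044 for FASN probes 1 and 2, and -0.11 to 0.14 for SULT1A1. Between areas it gave -0.25 to 0.16 for FASN probe 2 and -0.30 to 0.063 for FBP1. The cause was not tested.

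Counts of probes called moved too. In the caruncular loop 3 became 1 with the second spot, 0 with the first spot and 0 on scaled arrays, and 0 to 2 with an animal left out. In the intercaruncular loop 1 became 0 with the first spot, 0 on scaled arrays, 2 without a dye term and 0 with any animal left out. Between areas 1 became 0 with the second spot, 0 on scaled arrays and 0 to 1 with an animal left out. SCNT versus AI through CJ gave 39, but 0 from means per animal and 8 to 53 with an animal left out, 8 without AI animal 3 and 8 without CJ animal 3. AI versus CJ gave 2074, and 1286 to 2826 with an animal left out; SCNT versus CJ gave 2994, and 2046 to 3804. The levels of the animals, an alternative added after seeing the data, called 0 probes in either loop and between areas, 9 in SCNT versus AI through CJ, 1630 in SCNT versus CJ and 834 in AI versus CJ. In SCNT versus CJ they called 3 genes of fatty acid uptake, 4 of oxidation and 5 of the haem list, against 6, 8 and 10, and ACADS and PNPLA2 lost their call. In AI versus CJ, 7 named genes did (ACADVL, CPT1A, HADH, HEBP2, PYGB, SLC27A1, UROD). The replicate block linking the areas of an animal left the count at 1 and changed no member's call (FABP3 -1.02). Under some other settings ACADVL, CPT1A, UROD and HEBP2 in AI versus CJ and PNPLA2 in SCNT versus CJ lost theirs.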

Other observations

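In the intercaruncular IVF-ET loop the levels of the members were set against those of ISG15 and OXTR over the 10 animals, a comparison chosen after their values were seen. The levels come from a ring of arrays in which neighbouring animals share an array, so the animals are not fully independent and the permutation p-values can be too small. FABP3 correlated with ISG15 with Pearson's r of 0.993 and Spearman's rho of 0.988 (two-sided permutation p = 1e-05 for both, the smallest that 100000 resamples can give, adjusted p = 0.00014 over 28 correlations). Without the 2 animals farthest in ISG15 its r was 0.979 (n = 8). CA2 correlated with r of 0.96 and rho of 0.964 (permutation p = 3e-05 and 9e-05, adjusted p = 0.00028 and 0.00063), and with r of 0.926 without those animals.

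FASN probe 1 had r of 0.742 and rho of 0.915 (permutation p = 0.0143 and 0.00046, adjusted p = 0.0402 and 0.00215), with r of 0.919 without the 2 animals. FBP1 had r of 0.917 and SULT1A1 r of 0.87 (permutation p = 0.00076 and 0.0016, adjusted p = 0.00304 and 0.0056), which came to 0.583 and 0.548 without the 2 animals, so these relations rest in good part on them. ALAS1 had r of 0.297 and FASN probe 2 r of 0.047, neither past the threshold (permutation p = 0.403 and 0.901). With OXTR the ranks ran the other way, with rho of -0.988 for FABP3, -0.964 for CA2 and -0.915 for FASN probe 1. It was -0.83 for SULT1A1, -0.794 for FBP1, -0.285 for ALAS1 and -0.152 for FASN probe 2. OXTR ordered the animals of this loop in exactly the reverse of ISG15, so these rho values repeat those of ISG15 with the sign turned. They are no second result, and a relation with ISG15 cannot be told apart from one with OXTR. How many of all probes follow ISG15 as closely was not counted.

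In the caruncular loop, where ISG15 ranged from -0.76 to 0.48, the same correlations were 0.316 for FABP3 and 0.551 for CA2 (permutation p = 0.373 and 0.0947, adjusted p = 0.565 and 0.241). FBP1 had rho of 0.77 there (permutation p = 0.0129, adjusted p = 0.0329) with r of 0.523 (p = 0.115 by permutation). ALAS1 and FASN probe 2 thus had the lowest correlations with ISG15 among the 7 probes of the intercaruncular loop. ALAS1 was also among those with every SCNT animal above every AI animal in the fit with CJ.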
